A study of Mus musculus with 30 samples.

Results

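The insulin-like growth factor (IGF) system was followed in the mouse ovary before birth through 10 genes: the ligands Igf1 and Igf2, the receptors Igf1r and Igf2r, and the binding protein genes Igfbp1 to Igfbp6. Every probe set of a 3-array Affymetrix series (array types A, B and C) that the platform annotation assigns to 1 of these symbols alone was taken, which gave 21 of 36701 probe sets, standing for 9 of the 10 genes. Testing required a signal of 50 or more on 2 or more of the 10 arrays that carry a probe set. Of the 21, 16 passed this filter, standing for 8 genes, as did 24825 probe sets in all. Igfbp5 appeared only on a probe set that also lists Tmem119, so that probe set is described apart and is in no count of members.

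Total RNA of pooled ovaries from mice labelled BL/6-129, prepared with TRIzol, was measured at 11.5, 12.5, 14.5, 16.5 and 18.5 days post coitum (dpc), and the youngest gonads, of 11.5 and 12.5 dpc, were sexed by PCR for Sry. No group received a treatment or carried a stated mutation. Each age has 2 numbered samples, called sample 1 and sample 2 here, with an array A, B and C each, so 30 arrays in all. Whether the 2 samples stem from different pools is not said in the labels, so p-values measure only the spread between samples, which may be technical.

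IGF ligands are secreted growth factors that act through the receptor tyrosine kinase encoded by Igf1r, which signals to the PI3K, Akt and mTOR branch and to the Ras and MAP kinase branch. The Igf2r product takes up and degrades IGF2, and the binding proteins hold the ligands outside the cell, where they can limit or prolong their action. In the ovary the system is best known for its part in the growth and survival of granulosa cells of the follicle.

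Signals were the authors' intensities, scaled to a mean of 125 per array. They compare ages for 1 probe set and do not compare probe sets or genes with each other. Differences were fitted with limma on log2(signal + 16), with all 10 arrays of a type sharing 1 estimate of the spread. Folds are on that scale, which understates changes at low signal. An adjusted p (Benjamini-Hochberg over all tested probe sets) under 0.05 was called.

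The share of probe sets at a signal of 50 or more was 48.8% to 63.0% per array. The 2 samples of an age correlated at r = 0.950 to 0.974 on array A, and less closely on arrays B (0.877 to 0.920) and C (0.856 to 0.896). The Gapdh 3′ to 5′ signal ratio, a sign of RNA quality averaged over the 3 arrays of a sample, ranged from 0.829 to 0.845 in the 4 youngest samples and from 1.05 to 1.08 in the samples of 18.5 dpc. Samples 1 and 2 gave 0.885 and 0.951 at 14.5 dpc, then 0.917 and 1.09, the highest of all, at 16.5 dpc. The part of this ratio in the changes with age was not tested. Of the 8 germ cell markers on array A 7 reached the filter, and so did all 7 supporting cell markers there. Also over it were 1 of 2 Sertoli cell markers (not Amh) and 2 of 5 mesonephros markers. The same held for 3 of 5 adrenal and steroidogenic cell markers (not Star or Cyp17a1) and 2 of 5 liver markers. In bulk RNA, fewer cells of a type and less RNA per cell cannot be told apart.

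Of the 16 tested probe sets, 4 changed over the 5 ages in the F test: Igfbp2 98627_at, Igfbp6 103904_at and Igfbp4 101571_g_at on array A, and Igf1r 129046_f_at on array C. That is 25% of them, against a background of 14.4% of all tested probe sets called. A called probe set was found for 3 binding protein genes and for Igf1r, and for neither ligand. Binding proteins and ligands were not tested against each other. At an unadjusted p under 0.05 the count was 7, against 31.3% of all tested probe sets.

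**Figure D1:**
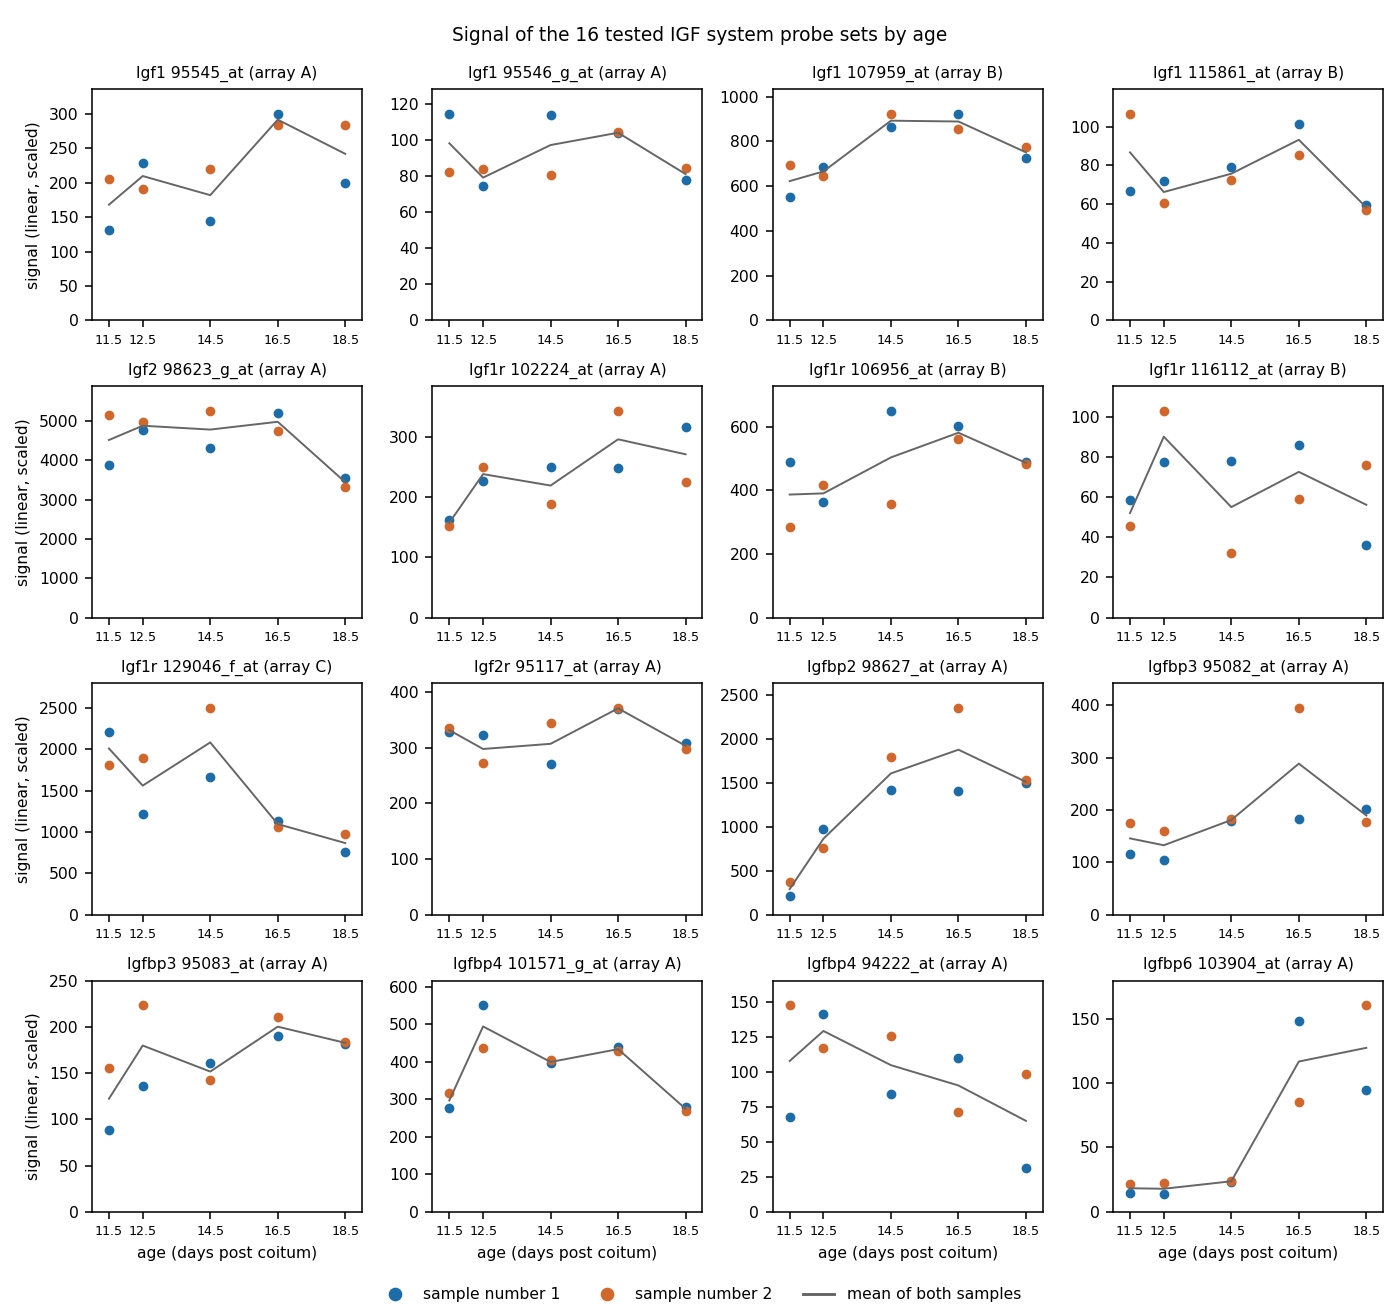
Linear scaled signal (y axis, starting at 0, each panel with its own scale) against age in days post coitum (x axis) for the 16 tested member probe sets. Points are single samples, with blue for sample 1 and orange for sample 2, and the line joins the means of both. Igfbp2 98627_at climbs from 214.3 and 366.8 at 11.5 dpc, while Igfbp6 103904_at stays at or under 24.0 until 14.5 dpc and is at or above 85.5 from 16.5 dpc.

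The promoters of the 3 binding protein genes that changed are shown because their time courses differ: Igfbp2 was lowest at 11.5 dpc, Igfbp4 had its highest mean at 12.5 dpc, and Igfbp6 was low until 14.5 dpc. Each sequence is the 250 bases before the RefSeq transcript start (assembly GRCm38.p6, plus strand): chr1:72824230-72824479 for Igfbp2, upstream of the first of its 2 listed starts, chr11:99040994-99041243 for Igfbp4 and chr15:102143936-102144185 for Igfbp6. Capitals mark matches, on either strand, to TATAAA (the TATA box core), GGGCGG (the GC box), CCAAT (the CCAAT box) and AAGGTCA (a nuclear receptor recognition site).
Igfbp2: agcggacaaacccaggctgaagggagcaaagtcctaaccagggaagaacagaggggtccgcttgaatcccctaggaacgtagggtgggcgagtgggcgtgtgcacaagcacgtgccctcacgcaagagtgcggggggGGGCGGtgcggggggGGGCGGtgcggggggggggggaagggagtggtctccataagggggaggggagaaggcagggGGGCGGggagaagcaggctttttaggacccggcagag
Igfbp4: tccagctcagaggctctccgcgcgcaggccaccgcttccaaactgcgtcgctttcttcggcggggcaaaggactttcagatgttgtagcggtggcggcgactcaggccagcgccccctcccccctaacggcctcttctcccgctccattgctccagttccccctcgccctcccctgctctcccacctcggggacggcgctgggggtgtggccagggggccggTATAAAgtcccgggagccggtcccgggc
Igfbp6: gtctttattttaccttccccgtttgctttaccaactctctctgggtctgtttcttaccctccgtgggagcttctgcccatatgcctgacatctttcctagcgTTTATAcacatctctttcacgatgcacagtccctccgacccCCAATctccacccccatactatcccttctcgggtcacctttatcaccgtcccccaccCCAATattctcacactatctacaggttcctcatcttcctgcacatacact
The Igfbp2 window held 3 GGGCGG matches, 113, 98 and 37 bases before the start, and had a GC content of 67.2%. Igfbp4 held 1 TATAAA, 28 bases before the start, in a window of 69.2% GC. Igfbp6 held 2 CCAAT matches, 107 and 50 bases before the start, and TATAAA on the opposite strand at 148 bases, with 49.6% GC. No motif was found in all 3 windows, and none held AAGGTCA. Of 32851 RefSeq windows of the same length, 12.4% held TATAAA, 32.7% GGGCGG, 33.8% CCAAT and 4.08% AAGGTCA, and the median GC content was 52.4%. A match describes the letters of the window and is not a measured binding site.

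Igf2, the imprinted fetal growth factor, gave a high signal at every age. On Igf2 98623_g_at (array A), samples 1 and 2 read 3886.7 and 5156.3 at 11.5 dpc, 4785.2 and 4985.2 at 12.5 dpc, 4315.1 and 5257.1 at 14.5 dpc, 5212.5 and 4757.4 at 16.5 dpc, then 3564.1 and 3329.4 at 18.5 dpc. Both samples of 18.5 dpc lay below all 8 samples of the earlier ages, which overlapped each other. The difference did not pass the test: 18.5 minus 16.5 dpc was -0.53 on the log2 scale (SE 0.16, 95% interval -0.89 to -0.17, limma adjusted p = 0.19), and the F test gave an adjusted p of 0.14. That F test was called when a sample of 11.5 dpc was left out (adjusted p = 0.045 without sample 1 and 0.042 without sample 2), and 18.5 against 11.5 dpc was called without sample 1 of 11.5 dpc (-0.58, adjusted p = 0.038). The second Igf2 probe set, 98622_at, stayed between 2.2 and 26.2 and was not tested.

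Igf1, the ligand that mediates much of growth hormone action after birth, had 4 tested probe sets, and none changed in the F test (limma adjusted p = 0.14 to 0.60). On array B, 107959_at read 551.0 and 694.0 at 11.5 dpc, 686.6 and 644.9 at 12.5 dpc, 862.6 and 922.3 at 14.5 dpc, 921.8 and 855.7 at 16.5 dpc, then 725.9 and 776.2 at 18.5 dpc. Its 4 samples of 14.5 and 16.5 dpc were above the other 6. On array A, 95545_at read 130.7 and 205.2 at 11.5 dpc, 228.3 and 190.7 at 12.5 dpc, 144.4 and 219.1 at 14.5 dpc, 299.5 and 283.1 at 16.5 dpc, then 199.3 and 284.1 at 18.5 dpc, and the ages overlapped apart from 16.5 dpc, which was above the 3 younger ages. The other 2 stayed between 74.6 and 114.7 (95546_g_at) and between 56.9 and 106.5 (115861_at). The 4 differed in sign over the whole course: 18.5 minus 11.5 dpc was 0.50 (95% interval -0.03 to 1.03) for 95545_at, 0.27 (-0.11 to 0.66) for 107959_at, -0.22 (-0.68 to 0.24) for 95546_g_at and -0.44 (-1.10 to 0.22) for 115861_at, and every interval held 0.

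Igf1r, the signalling receptor, gave opposite answers on different arrays. Igf1r 102224_at (array A) read 163.1 and 152.4 at 11.5 dpc, 227.2 and 250.1 at 12.5 dpc, 250 and 189.2 at 14.5 dpc, 249.6 and 343.5 at 16.5 dpc, then 317.0 and 226.3 at 18.5 dpc. Both samples of 11.5 dpc were below all others, and the later ages overlapped. It rose by 0.71 from 11.5 to 18.5 dpc (SE 0.21, 1.64-fold, limma adjusted p = 0.040), while its F test was not called (adjusted p = 0.080). The call was lost without either sample of 11.5 dpc (adjusted p = 0.081 without sample 1 and 0.108 without sample 2), either sample of 12.5 dpc (0.058 each) or sample 1 of 18.5 dpc (0.30), and with no filter (0.057), quantile normalization (0.060), median centring (0.072) or no intensity trend (0.066).

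Igf1r 129046_f_at (array C) read 2213.2 and 1809.7 at 11.5 dpc, 1221.9 and 1901.6 at 12.5 dpc, 1670.7 and 2499.2 at 14.5 dpc, 1131.3 and 1061.4 at 16.5 dpc, then 759.4 and 973.7 at 18.5 dpc. All 4 samples of 16.5 and 18.5 dpc were below the 6 younger ones. It fell by 1.20 on the log2 scale from 11.5 to 18.5 dpc (SE 0.26, 2.30-fold lower, limma adjusted p = 0.0087), and its F test was called (adjusted p = 0.018). The whole-course call was lost without sample 1 of 11.5 dpc (adjusted p = 0.060) or sample 1 of 18.5 dpc (0.096), and with no intensity trend (0.056). The F call was lost without sample 1 (0.099) or sample 2 (0.052) of 18.5 dpc and with no trend (0.117). The suffix _f_at marks a probe set that may detect more than 1 gene. The 3 genes on array C most like it over the 10 arrays were Rbm8a (Pearson's r = 0.96), Txlna (0.96) and Fis1 (0.95), all on _f_at probe sets. Of the 50 most like it, 19 had that suffix, against 15.0% of the 3939 array C probe sets compared, and the part of shared sequence was not tested.

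The remaining Igf1r probe sets, both on array B, were not called. Igf1r 106956_at lay between 284.5 and 649.3 (F adjusted p = 0.38, limma), with an 18.5 minus 11.5 dpc difference of 0.37 (95% interval -0.23 to 0.96). Igf1r 116112_at lay between 32.3 and 102.9 (F adjusted p = 0.59), with a difference of 0.03 (-0.84 to 0.91). Igf2r 95117_at, for the receptor that clears IGF2, read 328.6 and 334.9 at 11.5 dpc, 323.0 and 272.7 at 12.5 dpc, 270.1 and 344.2 at 14.5 dpc, 370.6 and 371.2 at 16.5 dpc, then 309.4 and 297.8 at 18.5 dpc. Its samples of 16.5 dpc were the highest, and those of 14.5 dpc spanned the range of the 3 remaining ages. The difference over the whole course was -0.12 (95% interval -0.48 to 0.23), and the F test gave an adjusted p of 0.52.

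Igfbp2, a binding protein of fetal tissues and serum, rose over the course from its lowest signals at 11.5 dpc. Igfbp2 98627_at read 214.3 and 366.8 at 11.5 dpc, 974.7 and 752.7 at 12.5 dpc, 1419.8 and 1794.0 at 14.5 dpc, 1404.1 and 2348.9 at 16.5 dpc, then 1495.1 and 1526.8 at 18.5 dpc. The ages of 14.5, 16.5 and 18.5 dpc overlapped, all their samples were above those of 12.5 dpc, and those were above 11.5 dpc. It rose by 2.36 from 11.5 to 18.5 dpc (SE 0.27, 5.14-fold, limma adjusted p = 0.00014), and the F test gave an adjusted p of 0.00021. With each sample left out in turn this rise lay between 2.00 and 2.73, with an adjusted p of at most 0.0024.

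From 11.5 to 12.5 dpc, Igfbp2 rose by 1.56 (SE 0.27, 2.94-fold, limma adjusted p = 0.044), from 291 ± 108 to 864 ± 157 (SD, n = 2). It was the 1 member called in this interval, where the background was 0.226% of tested probe sets, and 3 passed an unadjusted p of 0.05, as did 12.4% of all. The call was lost without sample 1 of 11.5 dpc (adjusted p = 0.157), sample 1 (0.409) or sample 2 (0.194) of 12.5 dpc, or sample 1 (0.075) or sample 2 (0.076) of 18.5 dpc, and with no filter (0.091), median centring (0.060) or no intensity trend (0.122). From 12.5 to 14.5 dpc the difference was 0.89 (SE 0.27, adjusted p = 0.12). No member was called in that interval by limma, with a background of 1.66% called, and 2 had an unadjusted p under 0.05, against 14.9% of all.

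Over 11.5 to 12.5 dpc, the sum of 8 germ cell markers on array A went from 902.3 and 800.2 to 2531.5 and 1628.3, and 1 of them, Dazl, rose. The sum of 7 supporting cell markers went from 1112.4 and 1893.4 to 2298.4 and 1821.5, and 2 of them, Fst and Irx3, rose. Neither list had a marker at 0, but the meiotic genes Sycp1, Stra8 and Sycp3 were near it at 11.5 dpc (means of 2.2, 2.7 and 0.7). From 14.5 to 16.5 dpc the germ cell sum went from 3238.7 and 2006.3 to 1697.2 and 1949.1. In that interval 3 of its markers fell, Pou5f1, Dppa3 and Stra8. The supporting cell sum then went from 1874.2 and 1867.4 to 2657.0 and 2665.3, with no marker called. Over the whole course 5 germ cell markers rose and 1, Pou5f1, fell (-2.17, limma adjusted p = 0.00013). Of the 7 supporting cell markers 4 rose over the whole course, Fst, Rspo1, Lgr5 and Irx3, and none was called lower. The part of the germ cell and supporting cell markers in the Igfbp2 change was not tested. The 3 genes whose signals were most like Igfbp2 over the 10 arrays were Kitl (Pearson's r = 0.98), which encodes the ligand of the Kit receptor, Scmh1 (0.97), a Polycomb group gene, and Ddx4 (0.97), a germ cell RNA helicase. These arrays share their scaling and their order in age. A second Igfbp2 probe set, 169248_r_at on array C, lay between 5.7 and 49.5 and was not tested.

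Igfbp6, whose product binds IGF2 in preference to IGF1, was low in the 6 youngest samples and higher in the 4 oldest. Igfbp6 103904_at read 14.7 and 21.8 at 11.5 dpc, 13.5 and 22.2 at 12.5 dpc, 23.3 and 24.0 at 14.5 dpc, 147.9 and 85.5 at 16.5 dpc, then 94.3 and 160.4 at 18.5 dpc. The first 6 samples and the last 4 did not overlap. Only the last 4 reached the signal of 50, so the probe set entered the test through the ages at which it is high, and the size of its change depends on the pseudocount: over the whole course it was 2.71 with 1 and 1.20 with 64. It rose by 1.70 on the log2 scale from 14.5 to 16.5 dpc (SE 0.31, limma adjusted p = 0.035) and by 2.03 over the whole course (SE 0.31, adjusted p = 0.0012), and the F test gave an adjusted p of 0.00084. It was the 1 member called from 14.5 to 16.5 dpc, against a background of 0.689%, and 3 had an unadjusted p under 0.05, against 15.6% of all. From 16.5 to 18.5 dpc the difference was 0.11 (adjusted p = 0.92).

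The whole-course rise of Igfbp6 lay between 1.70 and 2.37 with each sample left out in turn, with an adjusted p of at most 0.021 (limma). The call from 14.5 to 16.5 dpc was lost without sample 1 (0.056) or sample 2 (0.057) of 12.5 dpc, sample 1 (0.119) or sample 2 (0.137) of 14.5 dpc, or sample 1 (0.169) or sample 2 (0.061) of 16.5 dpc, and with no filter (0.064). Over the same interval the sum of 10 stroma markers on array A went from 3947.2 and 3932.6 to 8302.8 and 5493.1, and 3 of them, the matrix genes Col1a1, Mfap4 and Eln, rose. Over the whole course 5 of the 10 rose and 2 fell, Nr2f2 (-1.35, adjusted p = 0.0021) and Tcf21 (-1.68, adjusted p = 0.00081), both transcription factor genes. None of the 10 was at 0, and sample 1 of 16.5 dpc was above sample 2 of that age for both the sum and Igfbp6. That order also held for the smooth muscle, endothelium, macrophage, adrenal and Sertoli cell marker sums on array A. It was the reverse for the remaining marker lists. At 18.5 dpc the stroma sum was 4911.5 and 5103.0. The part of stroma markers in the Igfbp6 change was not tested. The genes most like Igfbp6 over the 10 arrays were Fam120a (Pearson's r = 0.97), Gstm6 (0.97), a glutathione transferase gene, and Amz2 (0.96).

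**Figure D2:**
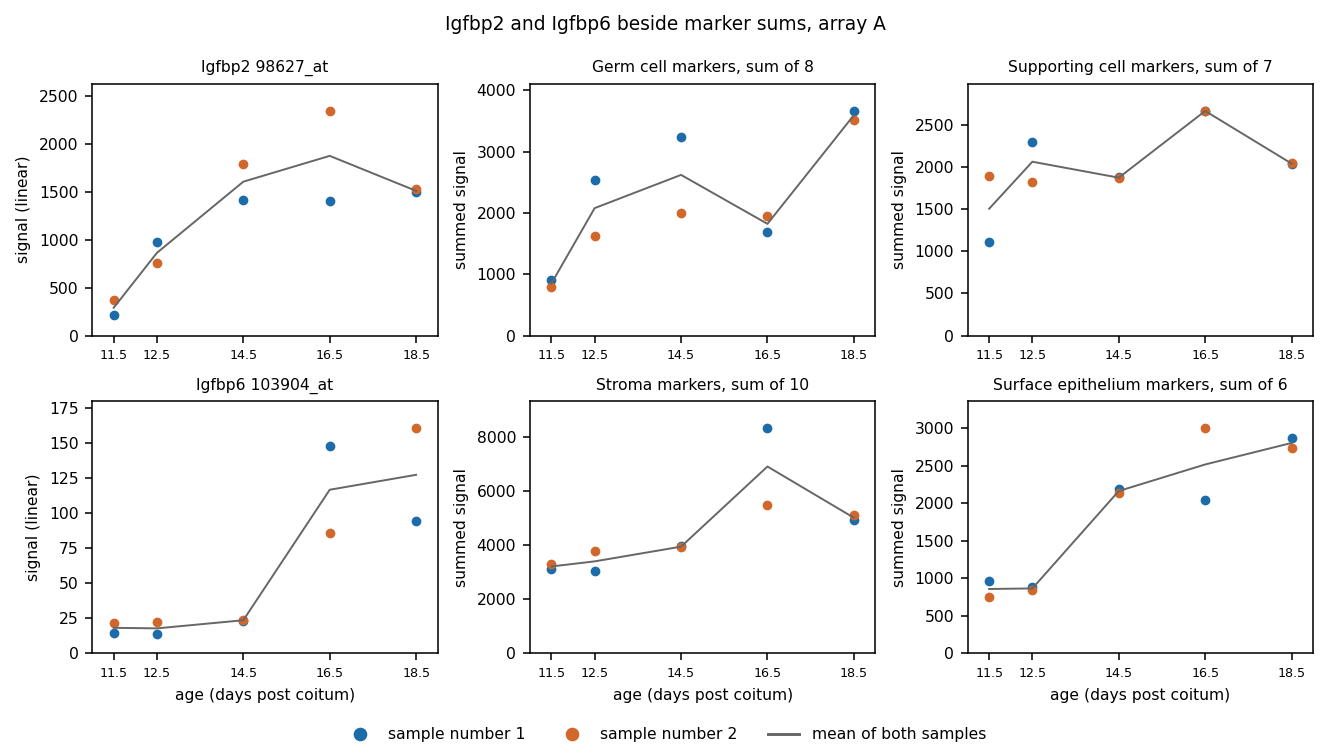
Signal of Igfbp2 and Igfbp6 (left panels) and summed signal of marker lists on array A (middle and right panels), all linear from 0 on the y axis, against age in days post coitum. Points are single samples and lines join the means of both. Igfbp2 and the germ cell sum are both lowest at 11.5 dpc, where the other marker sums drawn also have their lowest mean. From 14.5 to 16.5 dpc the mean germ cell sum falls from 2622.5 to 1823.15. Igfbp2 has its highest mean at 16.5 dpc, as do the supporting cell sum (2661.15) and the stroma sum (6897.95). Igfbp6 and the stroma sum are both above their younger samples at 16.5 and 18.5 dpc, although 2 of the 10 stroma markers, Nr2f2 and Tcf21, fell over the course.

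Igfbp4, whose product is cleaved by the protease PAPP-A, had its highest mean at 12.5 dpc and similar signals at the first and the last age. Igfbp4 101571_g_at read 276.0 and 317.9 at 11.5 dpc, 550.9 and 437.9 at 12.5 dpc, 395.6 and 403.6 at 14.5 dpc, 440.2 and 427.6 at 16.5 dpc, then 279.4 and 269.9 at 18.5 dpc. The samples of 11.5 and 18.5 dpc overlapped and lay below the 6 samples between. The F test was called (limma adjusted p = 0.014), but no single interval was: 12.5 minus 11.5 dpc was 0.70 (SE 0.16, adjusted p = 0.11), 18.5 minus 16.5 dpc was -0.63 (SE 0.16, adjusted p = 0.11), and 18.5 minus 11.5 dpc was -0.10 (95% interval -0.45 to 0.24). The F call was lost without sample 1 (0.065) or sample 2 (0.070) of 18.5 dpc, and the first interval was called without sample 2 of 11.5 dpc (0.041). The genes most like it were Lrpap1 (Pearson's r = 0.95 over 10 arrays), Tgfbi (0.93) and Ifitm3 (0.91).

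Of the other Igfbp4 probe sets, 94222_at also had its highest mean at 12.5 dpc, lay between 31.3 and 147.9 and did not pass the F test (adjusted p = 0.39, limma). Igfbp4 101570_at lay between 5.2 and 38.6 and was not tested.

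Igfbp3, the main carrier of IGFs in adult blood, had 2 tested probe sets and neither was called in the F test (limma adjusted p = 0.17 and 0.27). Igfbp3 95082_at read 115.5 and 175.8 at 11.5 dpc, 105.1 and 160.0 at 12.5 dpc, 178.8 and 182.7 at 14.5 dpc, 182.6 and 394.4 at 16.5 dpc, then 201.1 and 177.8 at 18.5 dpc. Sample 2 of 16.5 dpc stood alone at the top, and without its partner, sample 1, the F test was called (adjusted p = 0.034). Igfbp3 95083_at ran from 88.9 and 156.0 at 11.5 dpc to 181.8 and 184.0 at 18.5 dpc, a difference of 0.57 (95% interval 0.02 to 1.11, adjusted p = 0.16), and it was called without sample 2 of 11.5 dpc (0.92, adjusted p = 0.030). Igfbp3 lies next to Igfbp1 on chromosome 11, as Igfbp2 lies next to Igfbp5 on chromosome 1.

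Igfbp1, which in adults is made mainly in the liver, had 2 probe sets and neither reached the filter. Igfbp1 103896_f_at read 9.1 and 13.1 at 11.5 dpc, 3.5 and 6.6 at 12.5 dpc, 3.4 and 1.9 at 14.5 dpc, 3.5 and 3.3 at 16.5 dpc, then 36.2 and 34.2 at 18.5 dpc. Both samples of 18.5 dpc were above all others. With no filter on signal, 18.5 dpc was higher than 16.5 dpc on 103896_f_at (limma adjusted p = 0.0065), whose suffix marks a probe set that may detect more than 1 gene. Igfbp1 103897_r_at, which lay between 4.4 and 40.9, gave an adjusted p of 0.93. No size is given for these differences, since all signals were under the filter and the pseudocount sets their log2 change. Over the same interval the 5 liver markers on array A went from sums of 210.3 and 261.5 to 968.0 and 951.7, and both tested ones, Alb (146 to 715) and Apoa1 (9.9 to 115), rose (adjusted p = 0.0075 and 0.018). Alb had already risen from 12.5 to 14.5 dpc (mean 21.9 to 171.4, limma adjusted p = 0.0018). Apoa1 was not called in that earlier interval (adjusted p = 0.31). Igfbp1 103896_f_at had means of 5.05 at 12.5 dpc and 2.65 at 14.5 dpc. None of the 5 liver markers was at 0, and their part in the Igfbp1 signal was not tested.

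The probe set that lists both Tmem119 and Igfbp5, 100566_at on array A, read 1828.8 and 2205.9 at 11.5 dpc, 1459.8 and 1581.0 at 12.5 dpc, 1868.0 and 2070.6 at 14.5 dpc, 3220.9 and 3097.6 at 16.5 dpc, then 2516.3 and 2422.8 at 18.5 dpc. Both samples of 16.5 dpc were the highest, those of 18.5 dpc came next, and those of 12.5 dpc were the lowest. It changed over the 5 ages (limma F adjusted p = 0.0035), also with each sample left out in turn (0.0012 to 0.022). From 14.5 to 16.5 dpc the difference of 0.68 (SE 0.14, 1.60-fold) had an adjusted p of 0.052. Which of the genes gave the signal cannot be read from this probe set.

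Over the whole course, 4 of the 16 tested probe sets were called by limma, 3 higher (Igfbp2, Igfbp6 and Igf1r 102224_at) and 1 lower (Igf1r 129046_f_at) at 18.5 than at 11.5 dpc. The background was 14.5% of tested probe sets, with 7.59% higher and 6.87% lower, and 6 members passed an unadjusted p of 0.05, against 28.9% of all. The median difference was 0.15 for the members and 0.02 for all tested probe sets. From 16.5 to 18.5 dpc no member was called by limma, with a background of 0.624% called, and 2 had an unadjusted p under 0.05, against 13.1% of all. The median difference in that interval was -0.29, against -0.01 for all.

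**Figure D3:**
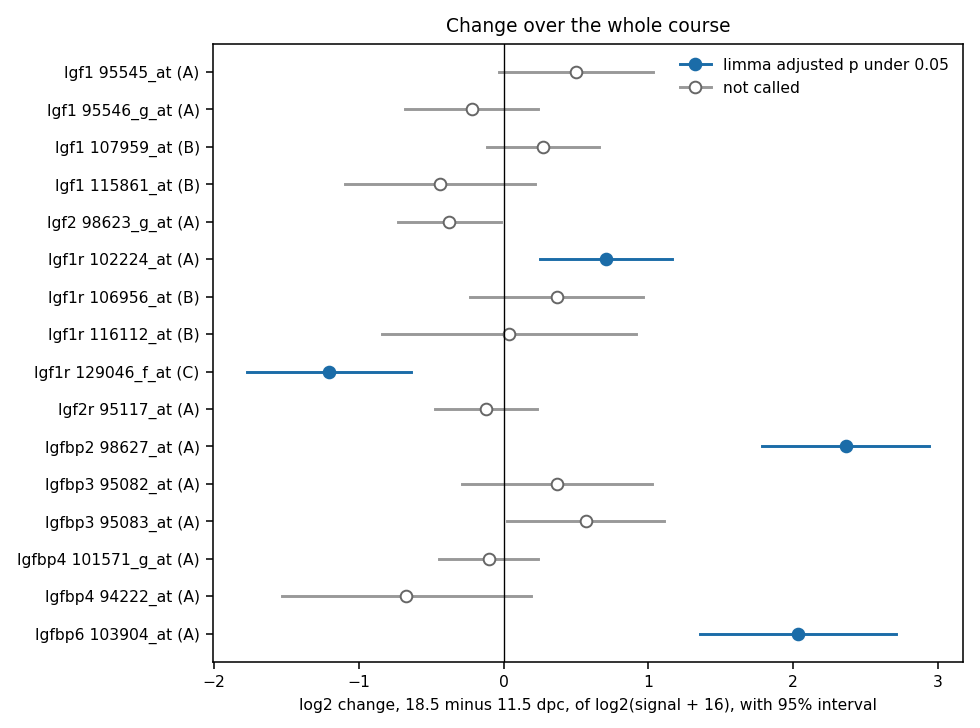
Difference between 18.5 and 11.5 dpc in log2(signal + 16) (x axis) for each tested member probe set, named with its array type on the y axis. Points are limma estimates, bars are 95% intervals, and filled blue marks an adjusted p under 0.05. Igfbp2 and Igfbp6 lie at 2.36 and 2.03, and the called Igf1r probe sets lie on opposite sides of 0, at 0.71 and -1.20.

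Of 73 other genes of the pathway (ligands and receptors of the insulin family, relatives and proteases of binding proteins, regulators of Igf2 and the signalling branches), 47 had a tested probe set. Each was represented by the one with the highest mean signal. In the F test 9 were called, which is 19.1%, against a background of 17.8% of named genes (16 had an unadjusted p under 0.05, against 35.7% of named genes). Over the whole course 8 were called, 3 higher and 5 lower, against a background of 17.5% of named genes (9.14% higher and 8.37% lower). By group, the F test called 1 of 6 relatives and proteases, 1 of 2 regulators of Igf2, 1 of 8 substrates and adaptors, 5 of 20 genes of the PI3K, Akt and mTOR branch, and 1 of 5 FoxO and GSK3 genes. On these probe sets none of 5 genes of the Ras and MAP kinase branch was called by limma, nor was the insulin receptor gene Insr, and none of these passed an unadjusted p of 0.05 in that test. A different probe set was called for 5 genes: Insr (limma F adjusted p = 0.036), the binding protein protease gene Htra1 (0.00013), the adaptor gene Grb10 on 2 probe sets (0.014 and 0.0040), and Akt2 (0.038) and Rictor (0.047) of the PI3K, Akt and mTOR branch. Htra1 and Insr were then also higher at 18.5 than at 11.5 dpc, by 2.21 (adjusted p = 3.8e-05) and 0.85 (0.018), so the count rests on which probe set stands for a gene. These 5 genes were named after their values were seen. Ins1, Ins2, H19 and Irs2 were among the 26 genes not tested here.

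Igf2bp1, which encodes an RNA-binding protein named for its binding of Igf2 mRNA, fell with age. It read 175.5 and 280.7 at 11.5 dpc, 196.4 and 188.6 at 12.5 dpc, 89.9 and 137.1 at 14.5 dpc, 54.3 and 73.9 at 16.5 dpc, then 33.4 and 53.3 at 18.5 dpc. The ages of 11.5 and 12.5 dpc overlapped and lay above all later samples. The whole-course fall was -2.03 on the log2 scale (limma adjusted p = 0.00040), and the F test gave an adjusted p of 0.00096. Both were called with each sample left out in turn.

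Foxo3, a transcription factor restrained by Akt and known for holding primordial follicles at rest, rose late. It read 220.1 and 193.3 at 11.5 dpc, 171.8 and 220.2 at 12.5 dpc, 231.0 and 215.2 at 14.5 dpc, 269.8 and 225.3 at 16.5 dpc, then 477.1 and 511.6 at 18.5 dpc. Both samples of 18.5 dpc stood above the other 8. It was the 1 pathway gene called from 16.5 to 18.5 dpc (0.96, limma adjusted p = 0.030), where the background was 0.842% of named genes. That call was lost without sample 1 (adjusted p = 0.108) or sample 2 (0.155) of 16.5 dpc, sample 1 (0.183) or sample 2 (0.213) of 18.5 dpc, and with no intensity trend (0.061), whereas the whole-course rise of 1.20 (adjusted p = 0.00081) was called with each sample left out.

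Igfbp7, a relative of the binding proteins with low affinity for IGFs, reached the signal of 50 only at 16.5 and 18.5 dpc and so was tested through its high ages. It read 22.4 and 5.2 at 11.5 dpc, 11.2 and 9.4 at 12.5 dpc, 36.5 and 29.5 at 14.5 dpc, 76.1 and 73.7 at 16.5 dpc, then 77.3 and 55.2 at 18.5 dpc. It rose by 1.51 over the course (limma adjusted p = 0.0080), a call lost without sample 1 of 18.5 dpc (0.085). Eif4ebp1, a repressor of translation that mTOR inactivates, read 184.2 and 150.9 at 11.5 dpc, 148.7 and 139.1 at 12.5 dpc, 90.2 and 94.2 at 14.5 dpc, 58.6 and 52.8 at 16.5 dpc, then 91.4 and 82.3 at 18.5 dpc. It fell by 0.83 over the course (adjusted p = 0.0084), with the lowest signals at 16.5 dpc, and this call was lost without sample 1 of 11.5 dpc (0.050) or sample 2 of 18.5 dpc (0.076). The F tests of Igfbp7 (adjusted p = 0.0052) and Eif4ebp1 (0.0018) were called with each sample left out in turn.

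The other 5 genes called in the F test were Rheb (limma adjusted p = 0.028), the GTPase that activates mTOR, Pik3r1 (0.028) and Pik3r2 (0.041), regulatory subunits of PI3K, Pdpk1 (0.030), the kinase that phosphorylates Akt, and the adaptor gene Gab1 (0.037). Rheb was lowest at 16.5 dpc, at 68.0 and 132.0, against 387.4 and 217.7 at 11.5 dpc. Pdpk1 rose by 0.79 over the course (adjusted p = 0.041). Pik3r1 fell by 1.23 (adjusted p = 0.034) on 129853_at (array C), where the samples of 16.5 dpc read 1580.6 and 626.0, but its 3 other tested probe sets were not called. Gab1 and Pik3r2 differed by 0.51 (adjusted p = 0.050) and 0.56 (0.22), with their highest mean at 16.5 dpc. Called over the whole course but not in the F test were Klk1, for a kallikrein protease, and Gsk3a, for a kinase inhibited by Akt. Klk1 changed by -1.42 (limma adjusted p = 0.019) and Gsk3a by -0.53 (0.034). Klk1 reached the filter signal only at 11.5 dpc (79.9 and 82.7) and in a sample of 12.5 dpc (52.6). It was thus tested through its high ages. At 18.5 dpc it read 39.9 and 7.8, where the pseudocount affects the size of its fall. Its probe set, 100061_f_at, has the suffix of those that may detect other genes as well.

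The calls of these 7 genes each depended on single samples. Without 1 sample, the F adjusted p of limma reached 0.124 for Rheb (16.5 dpc sample 1), 0.198 for Pik3r1 (18.5 dpc sample 1), 0.139 for Pik3r2 (16.5 dpc sample 2), 0.087 for Pdpk1 (16.5 dpc sample 2) and 0.134 for Gab1 (18.5 dpc sample 1). The call was kept in 5 of the 10 such fits for Rheb, Pik3r1 and Pdpk1, 3 for Pik3r2 and 2 for Gab1. The whole-course adjusted p reached 0.155 for Klk1 (without 18.5 dpc sample 2), 0.188 for Gsk3a and 0.211 for Pik3r1 (both without 18.5 dpc sample 1), and 0.192 for Pdpk1 (without 11.5 dpc sample 2).

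**Figure D4:**
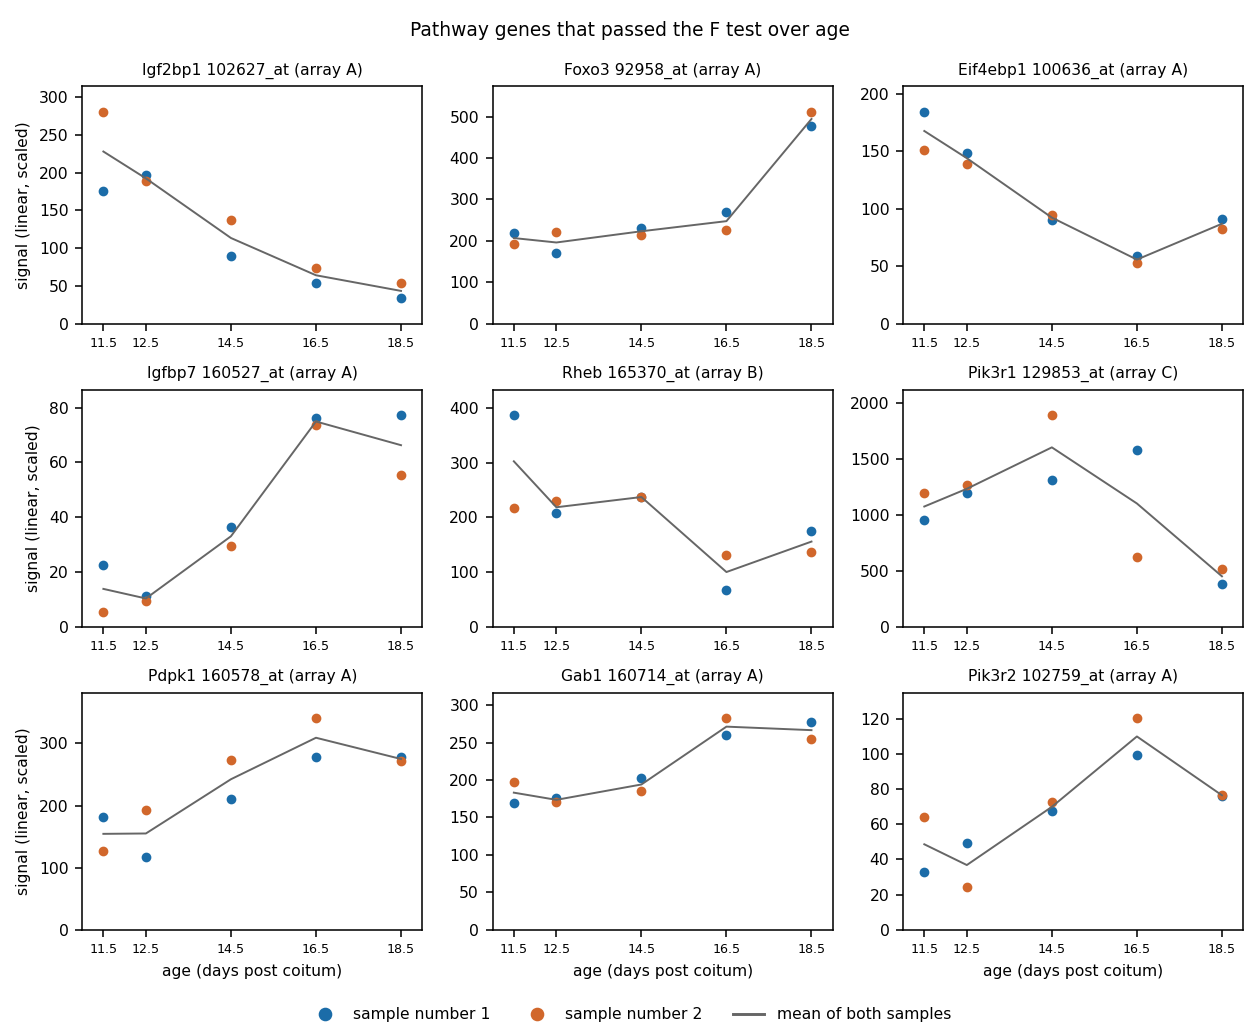
Linear scaled signal (y axis from 0, each panel with its own scale) against age in days post coitum for the 9 pathway genes called in the F test over age. Points are single samples and lines join the means of both. Foxo3 reaches 477.1 and 511.6 at 18.5 dpc, and Igf2bp1 drops to 33.4 and 53.3.

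In the earlier intervals no pathway gene was called by limma. The share of all named genes called was 0.238% from 11.5 to 12.5 dpc, 2.17% from 12.5 to 14.5 dpc and 0.858% from 14.5 to 16.5 dpc. At an unadjusted p under 0.05 the pathway genes numbered 3 of 47 in the first interval, against 12.4% of all named genes, 9 in the second, against 16.7%, and 13 in the third, against 17.5%. In the last of these the median difference of the 47 genes was 0.18, against -0.01 for all named genes.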

How the data were processed

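The authors scaled the signal intensity values to a mean of 125 per array, per the labels' descriptions. Their software was not given in the sources used here. Detection calls played no part. Gene names came from the platform annotation, and only probe sets with 1 symbol were assigned to a gene. With limma 3.58.1 in R 4.3.3, log2(signal + 16) was fitted per array type (lmFit, then eBayes with an intensity trend) with the 5 ages as groups and 5 residual degrees of freedom. Benjamini-Hochberg adjustment ran over the 24825 tested probe sets of the 3 types together. The number of arrays limits the precision.

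The members and the pathway and marker lists were chosen with earlier results of these data known. Named were all members, pathway genes called in the F test, genes that were the only one of their group to be called, and the 3 genes most like each called member (Pearson's r, same array type, mean signal of at least 100 at the highest age). Klk1 and Gsk3a are named beyond this rule, after their values were seen. Alternatives were other pseudocounts (1 and 64), filters (none and 100) and normalizations, no intensity trend, a replicate block, adjustment within each array type, any tested probe set of a pathway gene, and leaving out each sample with its A, B and C arrays together. The labels do not state that these 3 arrays received the same RNA.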

Additional observations from a re-analysis of the deposited data

How the results depend on the processing

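The whole-course rises of Igfbp2 and Igfbp6 and their F tests were called under every alternative run. With no filter on signal, no member was called from 11.5 to 12.5 dpc (0, against 1) or from 14.5 to 16.5 dpc (0, against 1). In that setting 1 was called from 16.5 to 18.5 dpc (Igfbp1 103896_f_at, against 0). Median centring gave 0 from 11.5 to 12.5 dpc. With no intensity trend, the member counts were 0 from 11.5 to 12.5 dpc and 2 over the whole course, and the pathway counts were 4 in the F test, 0 from 16.5 to 18.5 dpc and 5 over the whole course. Counting any tested probe set of a pathway gene gave 14 in the F test and 1 from 12.5 to 14.5 dpc. With each sample left out in turn, members called ranged from 2 to 5 in the F test, 0 to 2 from 11.5 to 12.5 dpc, 0 to 1 from 14.5 to 16.5 dpc and 2 to 4 over the whole course. Pathway genes called ranged from 5 to 12 in the F test, 0 to 2 from 14.5 to 16.5 dpc, 0 to 1 from 16.5 to 18.5 dpc and 4 to 9 over the whole course. The cause of these changes was not tested. Whether same-numbered samples were paired across ages is not stated in the labels. Of 30 correlations of same-numbered deviations between ages, 1 was over 0.1 (range -0.16 to 0.22), which does not settle it. With the replicate number as a block, the F test called 4 members and 7 pathway genes, and the whole course 3 members (Igf1r 102224_at then had an adjusted p of 0.050) and 8 pathway genes. No difference called with all samples in the fit reversed its direction when a sample was left out. Signals under the filter, such as those of Igfbp1, are limited by the scaled intensity background, which these values do not give.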
